A study of Mus musculus with 24 samples.

Results

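The genes described here are tumour necrosis factor (TNF), its relatives among the ligands and their receptors, as named on the array: Tnf and the genes whose symbols start with Tnfsf or Tnfrsf and a number. The rule found 30 genes, each represented by the brightest of its probes, among 55681 probes on the array; 40 probes carry these names. There were 10 ligands, 4 receptors with a death domain, 12 receptors without one that bind TRAF adaptors, and 4 decoys and regulators. 1 further ligand gene of that name pattern is not reported here.

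The study asked how mammary tissue of 2 mouse strains differs before and after low-dose ionizing radiation (LDIR). Female mice of 8 to 9 weeks received 10 cGy of X-rays to the whole body or a sham exposure, and RNA of the mammary gland was hybridised to 1-colour Agilent arrays, 1 array for each of 24 samples. BALB/c, an inbred laboratory strain, was sampled at 3 times (2, 4 and 8 weeks) and SPRET/EiJ, an inbred strain of the wild species Mus spretus, at 4 weeks, each with irradiated and sham groups. Each of these 8 groups had 3 samples, described as biological replicates and lettered A, B and C, and the sham and irradiated groups of a strain differed in no other labelled allele or agent.

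TNF family ligands are mostly membrane proteins that act as trimers, and each binds 1 or a few receptors of the family. Receptors with a death domain can start caspase activation, receptors that bind TRAF adaptors activate NF-κB and MAP kinases, and decoy receptors take up a ligand without passing on its signal. Many members are best known from lymphocytes and myeloid cells, where they control survival and costimulation, and epithelial and fat cells of the mammary gland carry several receptors as well.

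A level here is the log2 of a probe's signal relative to the 75th percentile signal of the same array, so 0 is the brightness of that percentile. Levels of different genes come from different probes and are not comparable with each other. Of the 30 genes, 24 were well above background on all 24 arrays. Tnf was on 22 of them, Tnfrsf26 on 19, Tnfrsf8 on 9, Tnfsf8 on 8, Tnfsf4 on 1 and Tnfsf18 on 0, and every gene had a value on every array.

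3 arrays stood apart from the rest. They were BALB/c sham A and BALB/c LDIR B at 8 weeks and SPRET/EiJ LDIR A. The summed level of 8 T lymphocyte markers (the linear signals added, in units of the 75th percentile) was 142 to 196.5 on these 3 arrays and 10.9 to 22.0 on the other 21. The summed level of 7 B lymphocyte markers was 91.1 to 112 on them and 2.49 to 23.0 on the others. All 8 T cell and all 7 B cell markers were above background on the 3 arrays. White adipocyte markers (6 of 6) and epithelial markers (8 of 8) were above background on all 24 arrays. The adipocyte sum was 1129, 986 and 1165 on the 3 arrays, below the 1415 to 3132 on the others. The epithelial sum was 194, 130 and 49.9 there. Other arrays gave 129 to 371 in BALB/c, with 274 to 354 at 8 weeks, and 30.7 to 131 in SPRET/EiJ. The part of these markers in the results was not tested. The background itself was raised on BALB/c sham A at 8 weeks, where negative control spots averaged 37.2 intensity units, and on SPRET/EiJ LDIR C at 26.3, against at most 18.9 elsewhere. Skeletal muscle markers summed to 0.355 to 4.82 in SPRET/EiJ and, in BALB/c, to 1.05 to 22.0 at 4 weeks, 1.35 to 387 at 2 weeks and 2.15 to 594 at 8 weeks, and their part in the results was not tested. In whole tissue, more cells of a type and more RNA per cell cannot be told apart.

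10 of the 30 genes were higher on each of these 3 arrays than on every other array of the same strain. They were Tnf, Tnfsf8, Tnfsf13b, Tnfsf14, Tnfsf15, Tnfrsf4, Tnfrsf13b, Tnfrsf13c, Tnfrsf18 and Tnfrsf26. Of all 55681 probes, 7.61% met the same description. No member was below all other arrays on all 3, and 12 members were above them on none. This is a description of single arrays and carries no test, and the part that the lymphocyte content of the pieces played in it was not tested.

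Among these 10 were genes of the BAFF system, which keeps B cells alive. Tnfrsf13b (TACI, a BAFF receptor of B cells) stood at 2.47 on BALB/c sham A at 8 weeks, 2.79 on BALB/c LDIR B and 2.71 on SPRET/EiJ LDIR A, and between -1.54 and -0.59 on all other arrays. These are values of the brightest of its 3 probes, and the others did not read a rise of that size. Their standard deviations were 0.59 and 0.48 in 8-week sham mice, 0.28 and 0.39 in 8-week LDIR mice, and 0.63 and 0.67 in SPRET/EiJ LDIR mice. The probe used gave 2.26, 2.37 and 2.06 in these groups. Tnfrsf13c (the BAFF receptor proper) stood at -0.82, -0.92 and -1.15 on the same 3 arrays and between -5.45 and -3.73 elsewhere. Tnfsf13b, the ligand BAFF, stood at 0.21, 0.22 and 0.24 and between -2.73 and -1.53 elsewhere. The ligand was thus high on the same arrays as both receptors by the probes used, with a smaller gap to the other arrays. Tnfrsf17 (BCMA, the receptor of plasma cells) did not follow: it read -3.27, -3.42 and -4.02 there, inside the range of -4.10 to -2.04 on the others of both strains. Within SPRET/EiJ, LDIR A read it below the other arrays (-3.78 to -2.74). The summed level of the 3 plasma cell markers was 52.0, 41.1 and 46.8 on the 3 arrays and 47.0 to 94.0 on the others. Their mean log2 level was 2.74, 2.42 and 2.91 on the 3 arrays and 1.41 to 2.83 on the others, highest on SPRET/EiJ LDIR A. The sum and the mean thus differ, and whether these arrays held more or fewer plasma cells was not tested.

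Tnfrsf4 and Tnfrsf18, costimulatory receptors of T cells, made up the second set. Tnfrsf4 (OX40) stood at 2.28, 2.37 and 2.78 on the 3 arrays and between -1.17 and -0.17 elsewhere. Tnfrsf18 (GITR, abundant on regulatory T cells) stood at 2.44 and 2.39 on the BALB/c arrays, where the other 16 BALB/c arrays ranged from -2.88 to 0.02. On SPRET/EiJ LDIR A it stood at -0.11, where the other 5 SPRET/EiJ arrays ranged from -4.26 to -3.50. Thus for Tnfrsf18 the SPRET/EiJ array with high lymphocyte markers still read lower than the BALB/c arrays with high lymphocyte markers, while for Tnfrsf4 it read higher. Tnfrsf9 (4-1BB), another such receptor, did not follow with its brighter probe. It read 2.99, 2.83 and 3.24 there, inside the range of 2.80 to 4.14 on the other arrays of both strains. Within SPRET/EiJ, LDIR A read it below the other arrays (3.51 to 3.90). Tnfrsf25 (DR3), a receptor of T cells, read 2.75 and 3.06 on the BALB/c arrays, above the other BALB/c arrays (-0.43 to 1.39). On SPRET/EiJ LDIR A it read 2.17, inside the range of 1.11 to 2.26 of that strain. Tnfrsf26, a receptor of the TRAIL decoy cluster, stood at -1.26, -0.93 and -1.36 and at no more than -3.65 elsewhere.

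Tnfrsf4 and Tnfrsf18 lie next to each other on chromosome 4, with starts 12627 bases apart in RefSeq's GRCm38.p6 annotation. The 250 bases before each start are shown because these neighbours were high on the same arrays. They are from chr4:156013445-156013694 and chr4:156026072-156026321, plus strand.
Tnfrsf4: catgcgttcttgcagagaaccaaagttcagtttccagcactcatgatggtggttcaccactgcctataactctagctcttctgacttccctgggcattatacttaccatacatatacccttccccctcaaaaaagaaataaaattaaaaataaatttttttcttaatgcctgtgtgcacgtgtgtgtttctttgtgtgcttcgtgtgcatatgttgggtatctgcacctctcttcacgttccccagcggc
Tnfrsf18: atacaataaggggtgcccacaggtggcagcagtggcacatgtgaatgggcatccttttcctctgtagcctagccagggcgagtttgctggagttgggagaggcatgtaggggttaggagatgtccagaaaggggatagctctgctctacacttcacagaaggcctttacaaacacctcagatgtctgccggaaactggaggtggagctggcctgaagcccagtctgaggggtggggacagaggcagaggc
The NF-κB consensus motif was searched on both strands of such 250-base windows. These windows hold no match, which says only that those letters are not in them. Of the 23 members with an entry in the RefSeq promoter table, a match was found for Tnfrsf8 and Tnfrsf9, and 3.9% of all 32851 windows hold one.

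Several ligands were high on the same arrays. Tnf, the founding inflammatory cytokine, stood at -1.14, -0.58 and -0.55, and between -5.29 and -2.87 elsewhere. Tnfsf8 (CD30 ligand) stood at -0.66, -0.90 and -1.81 and at no more than -5.02 elsewhere, where it was above background on few arrays. Tnfsf14 (LIGHT, made by activated T cells) stood at -0.98, -1.40 and -1.28 and between -4.93 and -3.20 elsewhere, while its receptor Tnfrsf14 (HVEM) stood at 0.08, -0.92 and -1.0, inside its range of -1.44 to 0.15. So the ligand of this pair was high on the 3 arrays and the receptor was not. Within SPRET/EiJ, LDIR A read Tnfrsf14 just below the other arrays (-0.97 to -0.27).

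**Figure D1:**
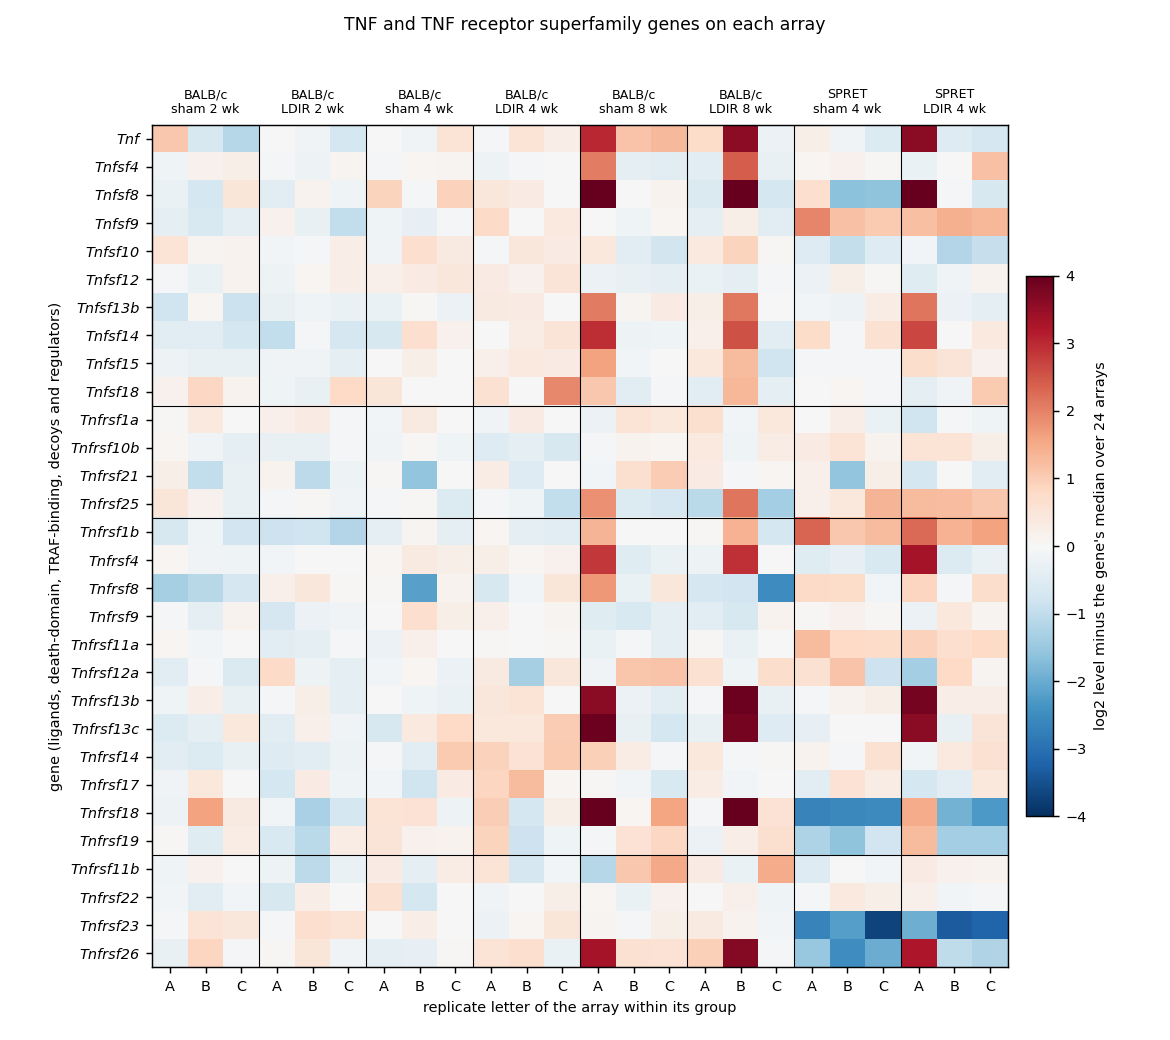
Each row is a gene and each column an array, grouped by strain, treatment and weeks; colour gives the log2 level minus the gene's own median over the 24 arrays, from -4 (blue) to 4 (red), with stronger values drawn at the end colours. Columns 8-week sham A, 8-week LDIR B and SPRET LDIR A are red for Tnf, Tnfsf8, Tnfsf13b, Tnfsf14, Tnfrsf4, Tnfrsf13b, Tnfrsf13c, Tnfrsf18 and Tnfrsf26, and the SPRET columns are blue for Tnfrsf23.

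**Figure D2:**
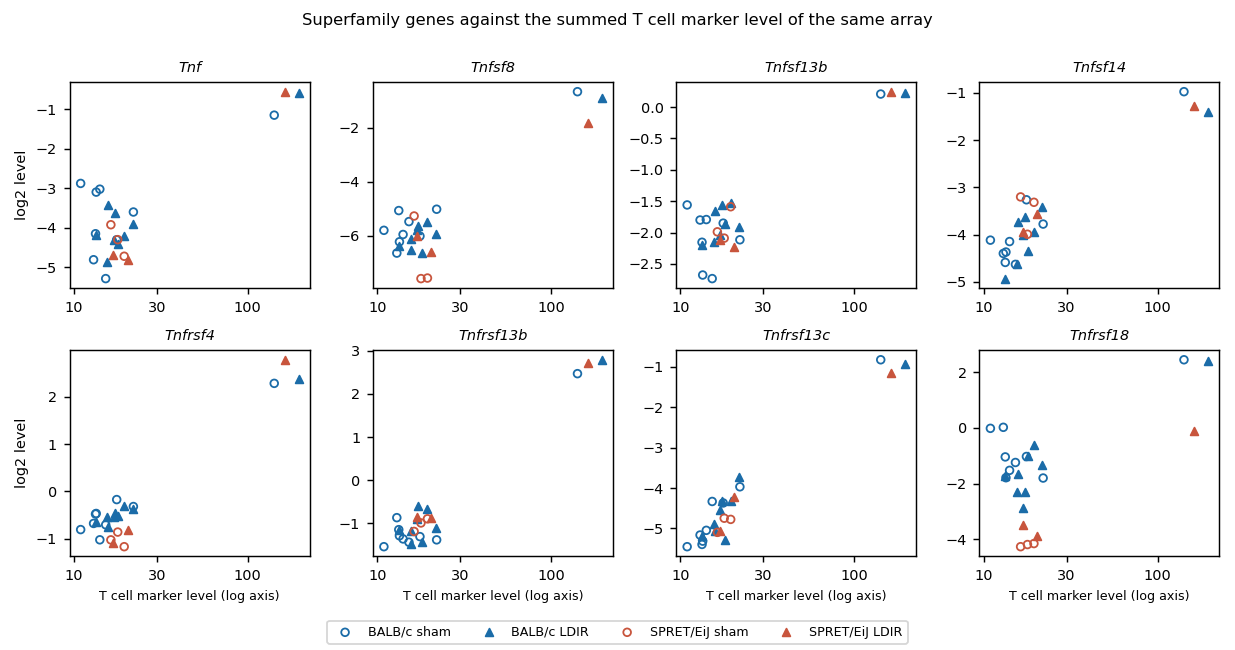
Each point is an array; the horizontal axis (log) is the summed T lymphocyte marker level in units of the array's 75th percentile signal, the vertical axis the gene's log2 level, with strain by colour and sham or LDIR by shape. In each of the 8 panels 3 points lie apart at marker levels of 142 to 196.5, and among the other 21 points the marker level stays between 10.9 and 22.0.

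The first comparison asked how the strains differ without radiation, in sham mice at 4 weeks. None of the 3 arrays set apart above belongs to it: the summed T cell marker level was 13.3 to 22.0 in BALB/c and 16.3 to 19.5 in SPRET/EiJ. The summed B cell marker level was 2.83 to 3.86 in BALB/c and 17.57 to 20.35 in SPRET/EiJ, without overlap. At the methods' thresholds, an unadjusted p under 0.001 and a change over 1.5-fold, 4 of 30 members differed (limma), where 8.86% of all probes did. 3 were higher in BALB/c (background 5.43%) and 1 was lower (3.43%). With an adjusted p under 0.05, 8 of 30 differed, against 18.7% of all probes. Neither share of the family stood above its background by more than a few genes. The median difference of the members was 0.02, beside -0.06 over all probes. Of the 7 B cell markers, 1 passed the thresholds higher in BALB/c and 2 passed lower. Epithelial markers summed to 136 to 266 in BALB/c and 30.7 to 131 in SPRET/EiJ sham mice. The part of the B cell and epithelial markers in the strain differences was not tested. The probes were designed on Mus musculus, so that a lower signal in SPRET/EiJ from less RNA and one from a mismatch under the probe cannot be told apart here. The BALB/c sham arrays lay on other slides than the SPRET/EiJ sham arrays, so that slide and strain cannot be told apart either; with the slide as a random block, 5 members passed, Tnfrsf19 besides the 4.

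Among the ligands, Tnfsf9 (4-1BB ligand, a costimulator of T cells) differed. It read -2.58, -2.72 and -2.49 in BALB/c sham A, B and C and -0.46, -1.23 and -1.37 in SPRET/EiJ sham mice. The groups did not overlap, and Tnfsf9 was lower in BALB/c, with a log2 difference of -1.58 (SE 0.27, 3 arrays per group, limma adjusted p = 0.0109). In irradiated mice the direction was the same, -0.95 (SE 0.27), but the adjusted p was 0.0738. Tnfsf10 (TRAIL, a ligand that can trigger apoptosis) read -0.27, 0.55 and 0.24 against -0.63, -1.05 and -0.62. Its groups did not overlap either, and its difference of 0.94 (SE 0.26) had an adjusted p of 0.0549 (limma). Of the other 8 ligands, Tnfsf4 and Tnfsf18 were above background on no array of this comparison, and the rest had differences up to 1.44 (Tnfsf8) that did not pass the test.

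No death-domain receptor passed the test in sham mice. Tnfrsf1a, the receptor through which TNF signals in nearly all cells, read 3.86, 4.31 and 3.94 in BALB/c and 3.95, 4.23 and 3.71 in SPRET/EiJ, and the groups overlapped. Tnfrsf10b (the mouse TRAIL death receptor) read 0.10, 0.30 and 0.08 against 0.57, 0.79 and 0.39, all BALB/c values being the lower. The difference was -0.42. Tnfrsf25 (DR3, a receptor of T cells) was at -0.84, also with all BALB/c values below the SPRET/EiJ values (adjusted p = 0.153, limma).

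Among the TRAF-binding receptors, Tnfrsf18 had the smallest p of all members. It read -1.04, -1.03 and -1.80 in BALB/c and -4.26, -4.19 and -4.15 in SPRET/EiJ, with 2.91 on the log2 scale between the means (SE 0.25, limma adjusted p = 8.79e-04), or 7.51-fold. Every BALB/c array lay above every SPRET/EiJ array, and the SPRET/EiJ values were tightly grouped. Tnfrsf1b, the TNF receptor of lymphocytes, endothelium and myeloid cells, ran the other way. It read -1.41, -0.93 and -1.39 in BALB/c against 1.28, 0.05 and 0.23 in SPRET/EiJ, a difference of -1.76 (SE 0.36, adjusted p = 0.0201) whose unadjusted p of 0.00242 missed the stricter threshold. 3 more receptors had an adjusted p under 0.05 without passing that threshold. Tnfrsf19 (TROY) was higher in BALB/c by 1.48, Tnfrsf4 was higher by 0.69 and Tnfrsf11a (RANK, the receptor through which progesterone signalling expands the mammary epithelium) was at -0.93 (adjusted p = 0.0115, 0.0392 and 0.0317 in limma).

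The decoys and regulators held the widest difference. Tnfrsf23, a mouse decoy receptor for TRAIL, read -0.57, -0.32 and -0.61 in BALB/c and -3.25, -2.81 and -4.28 in SPRET/EiJ, higher in BALB/c by 2.95 (SE 0.38, limma adjusted p = 0.0039). Tnfrsf26, a neighbour of the same gene cluster, read -4.94, -4.92 and -4.56 in BALB/c and was above background on no SPRET/EiJ sham array, so that its excess in BALB/c was at least 1.76-fold (adjusted p = 0.0080). Tnfrsf22, the other decoy of that cluster, and Tnfrsf11b (osteoprotegerin, the decoy for RANK ligand) had differences of -0.20 and 0.30 that did not pass the test.

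A second probe did not repeat every strain result. 1 stretch of each probe is shown for Tnfrsf23 and Tnfrsf9, because the probes of these genes disagreed between strains, and for Tnfrsf18, which has 1 probe. Each stretch is the first 30 of the probe's 60 bases, in lower case, with nothing marked, and the positions are those of the whole probe in mm9.
Tnfrsf23, probe used, chr7:150851714-150851773, minus strand: cctgggtcagtgaactcaactgagagcaat
Tnfrsf23, second probe, chr7:150865851-150865910, minus strand: acattcacagggaaagataatggcctgcat
Tnfrsf9, probe used, chr4:150319582-150319641, plus strand: catagaccaatggtccagttaaaataactg
Tnfrsf9, second probe, chr4:150319101-150319160, plus strand: cgcgcacctcatccaagtctcttctaacgc
Tnfrsf18, chr4:155402941-155403000, plus strand: ccaccaagagcaccacgtttagcacaagat
The second Tnfrsf23 probe, above background on 15 of 24 arrays, gave 0.00 in sham mice and 0.52 in irradiated mice where the first gave 2.95 in both. For Tnfrsf9 (4-1BB, a costimulatory receptor of T cells) the brighter probe gave 0.21 in sham mice and -0.01 in irradiated mice, and the second gave -2.39 (limma adjusted p = 0.0017) and -2.63 (adjusted p = 0.0045). Among the other second probes, that of Tnfrsf13c passed the thresholds in sham mice, where it was above background on 2 BALB/c arrays and 0 SPRET/EiJ arrays so that BALB/c exceeded SPRET/EiJ by at least 1.43-fold (limma adjusted p = 0.0047), while the probe used gave 0.30. That of Tnfrsf14 gave 1.51 against -0.03, and that of Tnfrsf22 gave -1.0 (adjusted p = 0.0241) against -0.20. For Tnfrsf19 the second probe gave 0.40 in sham mice (limma adjusted p = 0.406) and 0.09 in irradiated mice. The probe used gave 1.48 and 0.45. The strain results of these genes thus depended on which stretch of the transcript was read, and whether sequence or transcript forms differ there was not tested.

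**Figure D3:**
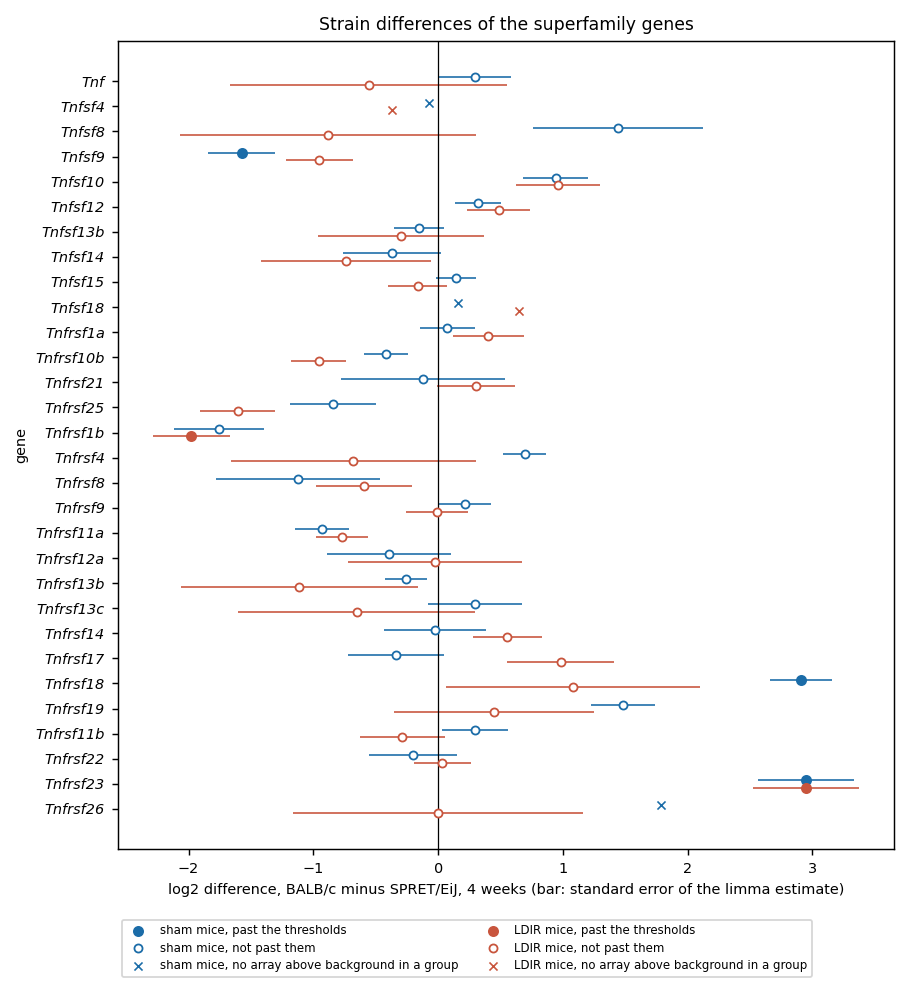
Points give the log2 difference BALB/c minus SPRET/EiJ at 4 weeks for each gene in sham (blue) and LDIR (red) mice, bars the standard error of the limma estimate, 3 arrays per group; filled points passed an unadjusted p of 0.001 with over 1.5-fold, and crosses without bars mark fitted values of genes above background on no array of a strain, which are not measured differences. Tnfrsf23 lies near 2.95 in both, Tnfrsf18 at 2.91 in sham and 1.08 in LDIR mice with a wide bar, and Tnfrsf1b at -1.76 and -1.98.

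The same question was asked of irradiated mice at 4 weeks. Here 2 of 30 members passed the thresholds, against 5.68% of all probes; Tnfrsf23 was higher in BALB/c (background 3.84%) and Tnfrsf1b lower (1.84%). 4 had an adjusted p under 0.05, where 11.1% of all probes did. SPRET/EiJ LDIR A, the array with high lymphocyte markers, belongs to this comparison. Without it, Tnfrsf1b and Tnfrsf23 again were the 2 that passed (background 7.82%), and 8 had an adjusted p under 0.05 (background 19.6%).

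Tnfrsf23 read -0.83, -0.50 and -0.10 in BALB/c LDIR mice and -2.54, -3.93 and -3.80 in SPRET/EiJ LDIR mice, higher in BALB/c by 2.95 (SE 0.43, limma adjusted p = 0.0083). Tnfrsf1b read -0.97, -1.40 and -1.46 against 1.22, 0.34 and 0.55, a difference of -1.98 (SE 0.31, adjusted p = 0.0107). The groups did not overlap for either gene. Without SPRET/EiJ LDIR A the differences were 3.39 and -1.72 (adjusted p = 0.0027 and 0.0092).

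2 death-domain receptors had an adjusted p under 0.05 in irradiated mice. Tnfrsf25 read 0.83, 0.74 and -0.08 in BALB/c and 2.17, 2.15 and 2.00 in SPRET/EiJ, a difference of -1.61 (SE 0.30, limma adjusted p = 0.0196). Tnfrsf10b read -0.29, -0.15 and -0.40 against 0.78, 0.78 and 0.47, a difference of -0.96 (SE 0.22, adjusted p = 0.0392). For both genes all BALB/c arrays were below all SPRET/EiJ arrays. Without SPRET/EiJ LDIR A they were at -1.58 and -0.91.

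Tnfrsf18 and Tnfrsf26 turned on that single array. Tnfrsf18 read -0.61, -2.30 and -1.35 in BALB/c LDIR mice and -0.11, -3.50 and -3.89 in SPRET/EiJ LDIR mice, and its difference of 1.08 (SE 1.02) had an adjusted p of 0.572 (limma). Without SPRET/EiJ LDIR A the difference was 2.28 (SE 0.52, adjusted p = 0.0376). Tnfrsf26 read -4.04, -3.92 and -4.86 and -1.36, -5.63 and -5.81, and its difference was 0.00 with that array. Without it no SPRET/EiJ LDIR array was above background, so that BALB/c exceeded SPRET/EiJ by at least 1.73-fold (adjusted p = 0.0388). Tnfsf10 likewise went from 0.96 to 1.27 (adjusted p = 0.131 and 0.0192). So in the absence of the array with high lymphocyte markers, these genes differed between the strains in the direction seen in sham mice.

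The response to LDIR was compared with sham at each time in BALB/c, over all times in BALB/c, and in SPRET/EiJ. No member had an adjusted p under 0.05 in any of these comparisons (limma, over all probes). At the methods' thresholds, an unadjusted p under 0.05 and over 1.5-fold, 2 members passed at 2 weeks (background 3.11%), 0 at 4 weeks (4.83%), 1 at 8 weeks (1.81%), 0 in SPRET/EiJ (2.2%) and 0 over all BALB/c times (1.08%). At an unadjusted p under 0.05 alone, 3 of 30 members were left at 4 weeks, 0 in SPRET/EiJ and 0 over all times. Of all probes, 3419 of 55679, 1233 of 55681 and 1774 of 55681 were left. The methods' t-test gave 0 members past both thresholds in these 3 comparisons. The strain-by-LDIR interaction at 4 weeks passed for 0 of 30 members (background 3.55%). 0 members had an unadjusted p under 0.05, where 1979 of 55680 probes did, and 0 passed both thresholds by the t-test. Among the members above background in both groups, log2 differences ranged from -1.29 to 0.42 at 2 weeks (26 members), -0.44 to 0.93 at 4 weeks (28), -0.55 to 0.70 at 8 weeks (27) and -0.45 to 2.01 in SPRET/EiJ (27). The medians of the fitted differences over all 30 were -0.04, 0.02, -0.01 and 0.19, beside 0.00, 0.02, -0.14 and 0.04 over all probes. The BALB/c arrays at 4 weeks serve in the strain comparisons and the LDIR comparison alike.

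At 2 weeks the 2 members that passed were TRAF-binding receptors of activated lymphocytes. Tnfrsf8 (CD30) read -7.03, -6.81 and -6.38 in sham mice and -5.49, -5.26 and -5.66 in LDIR mice, without overlap (unadjusted p = 9.71e-04, adjusted p = 0.771, limma). It was above background on 2 of 3 LDIR arrays and 0 of 3 sham arrays, so that only a bound can be given, at least 1.14-fold higher after LDIR. Tnfrsf18 read -1.79, 0.02 and -1.24 in sham mice and -1.71, -2.88 and -2.29 in LDIR mice. The groups overlapped, and the difference of -1.29 (SE 0.52) had an unadjusted p of 0.0459 (adjusted p = 0.893, limma).

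The 250 bases before the start of Tnfrsf8 are shown because it was the only member past the thresholds in more than 1 LDIR comparison; capitals mark the match to the NF-κB consensus motif, which lies on the opposite strand. They are chr4:145315165-145315414, minus strand, GRCm38.p6.
Tnfrsf8: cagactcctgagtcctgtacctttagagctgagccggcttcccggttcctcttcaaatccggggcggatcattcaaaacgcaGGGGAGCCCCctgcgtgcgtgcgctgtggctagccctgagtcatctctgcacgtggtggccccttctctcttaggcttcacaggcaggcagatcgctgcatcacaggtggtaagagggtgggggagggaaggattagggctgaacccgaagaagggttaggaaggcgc

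At 8 weeks Tnfrsf8 ran the opposite way. It read -3.99, -5.98 and -5.24 in sham mice and -6.39, -6.48 and -8.22 in LDIR mice, and was at least 1.81-fold lower after LDIR, being above background on 2 sham arrays and 0 LDIR arrays (unadjusted p = 0.0335, adjusted p = 1, limma). The highest value was that of sham A, which had high lymphocyte markers and a raised background. Sham A, B and C and LDIR A lay on another slide than LDIR B and C. With the slide as a block, which rests on LDIR A alone, Tnfrsf8 did not pass the thresholds. Without sham A and LDIR B, the arrays with high lymphocyte markers, 2 samples were left in each group, and Tnfrsf8 was at least 1.38-fold lower after LDIR with unadjusted p = 0.0725. In that smaller set 4 other members passed (background 4.37%), all with an adjusted p of 0.968. Tnfsf10 was at 0.83, Tnfrsf21 (DR6) and Tnfrsf25 were at -0.64 and -0.62, and Tnfsf8, above background on 1 sham array, was at least 1.15-fold lower after LDIR.

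At 4 weeks in BALB/c, 3 members had an unadjusted p under 0.05, where 3419 of 55679 probes did, and were under 1.5-fold. Tnfrsf10b read 0.10, 0.30 and 0.08 in sham mice and -0.29, -0.15 and -0.40 in LDIR mice, lower on each LDIR array, with a difference of -0.44 (unadjusted p = 0.0312, adjusted p = 0.783, limma). Tnfrsf13b read -1.14, -1.30 and -1.38 and -0.66, -0.59 and -1.10, a difference of 0.49. Its other probes gave 0.26 and 0.44, with overlap (limma unadjusted p = 0.217 and 0.0909). Tnfsf9 read -2.58, -2.72 and -2.49 and -1.63, -2.43 and -2.02, a difference of 0.57. For all 3 the groups did not overlap with the probes used, and none had an adjusted p under 0.05. Macrophage markers moved in the same comparison, with 3 of 5 past the thresholds and higher after LDIR and summed levels of 42.1 to 61.2 against 21.4 to 39.1. Of the milk protein genes 2 of 5 passed and were higher after LDIR (Csn1s1 and Csn2, the latter above background on no sham array), and of the epithelial markers 2 of 8 passed and were lower (Krt5 at -0.72 and Krt14 at -0.92). The part of these markers in the members' values was not tested. Sham A and B lay on another slide than sham C and the LDIR arrays. With the slide as a block, which rests on sham C alone, 0 members had an unadjusted p under 0.05. The second probes of Tnfrsf13c and Tnfrsf23 passed the thresholds at 4 weeks, higher after LDIR by 0.67 and 0.75 without overlap (unadjusted p = 0.0064 and 0.0217, limma adjusted p = 0.692 and 0.783), where the probes used gave 0.45 and 0.02.

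The TNF ligand and its receptors gave no LDIR difference past the thresholds. Tnf read -3.09, -4.81 and -5.29 in sham and -4.17, -4.31 and -4.88 in LDIR mice at 2 weeks, -4.15, -4.30 and -3.60 and -4.20, -3.61 and -3.91 at 4 weeks, then -1.14, -3.02 and -2.87 against -3.42, -0.58 and -4.40 at 8 weeks. The SPRET/EiJ readings were -3.92, -4.30 and -4.72 in sham and -0.55, -4.69 and -4.82 in LDIR mice. Sham and LDIR arrays overlapped at each BALB/c time and in SPRET/EiJ, and the high readings at 8 weeks fell on 1 array of each treatment. Tnfrsf1a read 4.02, 4.35 and 3.96 and 4.16, 4.30 and 3.93 at 2 weeks, 3.84, 4.30 and 3.98 in LDIR mice at 4 weeks, and 3.74, 4.53 and 4.39 and 4.60, 3.85 and 4.38 at 8 weeks. SPRET/EiJ LDIR mice gave 3.18, 3.93 and 3.80. It varied less than Tnf over the arrays, and its low readings at 8 weeks were those of the arrays with high lymphocyte markers. Tnfrsf1b read -1.70, -1.22 and -1.82 and -1.87, -1.82 and -2.22 at 2 weeks, all LDIR arrays being the lower, although LDIR B and sham C both round to -1.82, with a difference of -0.39 (unadjusted p = 0.118, limma). At 8 weeks it read 0.31, -1.03 and -1.05 and -0.99, 0.36 and -1.76, with the 2 arrays of high lymphocyte markers above the rest.

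For the TRAIL system no LDIR difference passed the thresholds over all arrays. Tnfsf10 read 0.43, -0.01 and 0.03 in sham and -0.22, -0.20 and 0.14 in LDIR mice at 2 weeks, -0.17, 0.33 and 0.21 in LDIR mice at 4 weeks, and 0.32, -0.58 and -0.84 and 0.29, 0.77 and -0.06 at 8 weeks. SPRET/EiJ LDIR mice gave -0.21, -1.27 and -1.03. The groups overlapped at each of these times. Its death receptor Tnfrsf10b read 0.33, 0.11 and -0.16 and -0.06, -0.04 and 0.18 at 2 weeks and 0.18, 0.38 and 0.33 and 0.65, 0.08 and 0.55 at 8 weeks, again with overlap. The 24 arrays kept Tnfrsf10b between -0.40 and 0.79, with both ends of that range at 4 weeks, in BALB/c LDIR C and SPRET/EiJ sham B.

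TWEAK and its receptor Fn14, known from tissue repair, gave no difference past the thresholds. Tnfsf12 (TWEAK) read 0.67, 0.48 and 0.89 and 0.56, 0.82 and 1.02 in sham and LDIR mice at 2 weeks, 0.95, 1.09 and 1.21 and 1.08, 0.92 and 1.27 at 4 weeks, and 0.52, 0.47 and 0.41 and 0.48, 0.36 and 0.73 at 8 weeks. The SPRET/EiJ readings were 0.52, 0.98 and 0.79 and 0.29, 0.63 and 0.90. Each pair of groups overlapped, and the 8-week arrays of BALB/c lay below the 4-week arrays. Tnfrsf12a (Fn14) read 0.68, 1.02 and 0.52 and 1.87, 0.90 and 0.70 at 2 weeks, 1.0, 1.18 and 0.86 and 1.48, -0.24 and 1.55 at 4 weeks, and 0.95, 2.20 and 2.25 and 1.71, 0.92 and 1.80 at 8 weeks. The SPRET/EiJ readings were 1.70, 2.25 and 0.27 and -0.27, 1.90 and 1.22, and sham and LDIR arrays overlapped in each comparison.

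The BAFF system read as follows on arrays without high lymphocyte markers. Tnfsf13b read -2.68, -1.80 and -2.73 and -2.20, -2.05 and -2.14 at 2 weeks, -2.15, -1.85 and -2.11 and -1.53, -1.56 and -1.92 at 4 weeks, and -1.99, -2.09 and -1.59 in SPRET/EiJ sham mice. In the interaction without SPRET/EiJ LDIR A it was the 1 member past the thresholds (background 4.5%), at 0.66 (unadjusted p = 0.0488, adjusted p = 0.908, limma), against -0.15 with all arrays. Tnfrsf13b read -1.28, -0.87 and -1.43 and -1.16, -0.89 and -1.48 at 2 weeks and -1.18, -0.99 and -0.89 in SPRET/EiJ sham mice. Tnfrsf13c read -5.31, -5.16 and -4.33 and -5.19, -4.55 and -4.90 at 2 weeks, -5.39, -4.37 and -3.97 and -4.32, -4.33 and -3.73 at 4 weeks, and -5.10, -4.75 and -4.77 in SPRET/EiJ sham mice. Tnfrsf17 read -3.43, -4.10 and -2.99 in sham and -2.46, -2.04 and -3.24 in LDIR mice at 4 weeks, where the groups overlapped and the difference of 0.93 (SE 0.40) had an unadjusted p of 0.0575.

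LIGHT and HVEM completed the pairs. Tnfsf14 read -4.37, -4.40 and -4.63 and -4.93, -4.0 and -4.62 at 2 weeks, -4.59, -3.26 and -3.78 and -3.94, -3.63 and -3.42 at 4 weeks, and -3.20, -3.99 and -3.32 in SPRET/EiJ sham mice. Tnfrsf14 read -1.32, -1.44 and -1.17 and -1.39, -1.34 and -1.09 at 2 weeks, -0.95, -1.30 and 0.15 in sham mice at 4 weeks and 0.05, -0.31 and 0.15 in LDIR mice at 4 weeks. The 4-week sham array that read like the LDIR arrays was sham C, which shared their slide.

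In SPRET/EiJ, the members with the widest LDIR estimates were those high on LDIR A. Tnfrsf26 read -6.11, -7.08 and -6.59 in sham and -1.36, -5.63 and -5.81 in LDIR mice, above background on LDIR A alone. The bound on its excess after LDIR, 2.55-fold, took the mean of all LDIR arrays and rests on LDIR A (unadjusted p = 0.0814, limma). Without LDIR A it was the 1 member past the thresholds (background 3.77%, unadjusted p = 0.0424, adjusted p = 1), on arrays none of which read it above background. Tnfsf8 read -5.27, -7.59 and -7.57 and -1.81, -5.99 and -6.60, and Tnfrsf18 -4.26, -4.19 and -4.15 and -0.11, -3.50 and -3.89. Over all BALB/c times without the 2 arrays of high lymphocyte markers, 0 members passed (background 1.8%), with 0 at an unadjusted p under 0.05.

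**Figure D4:**
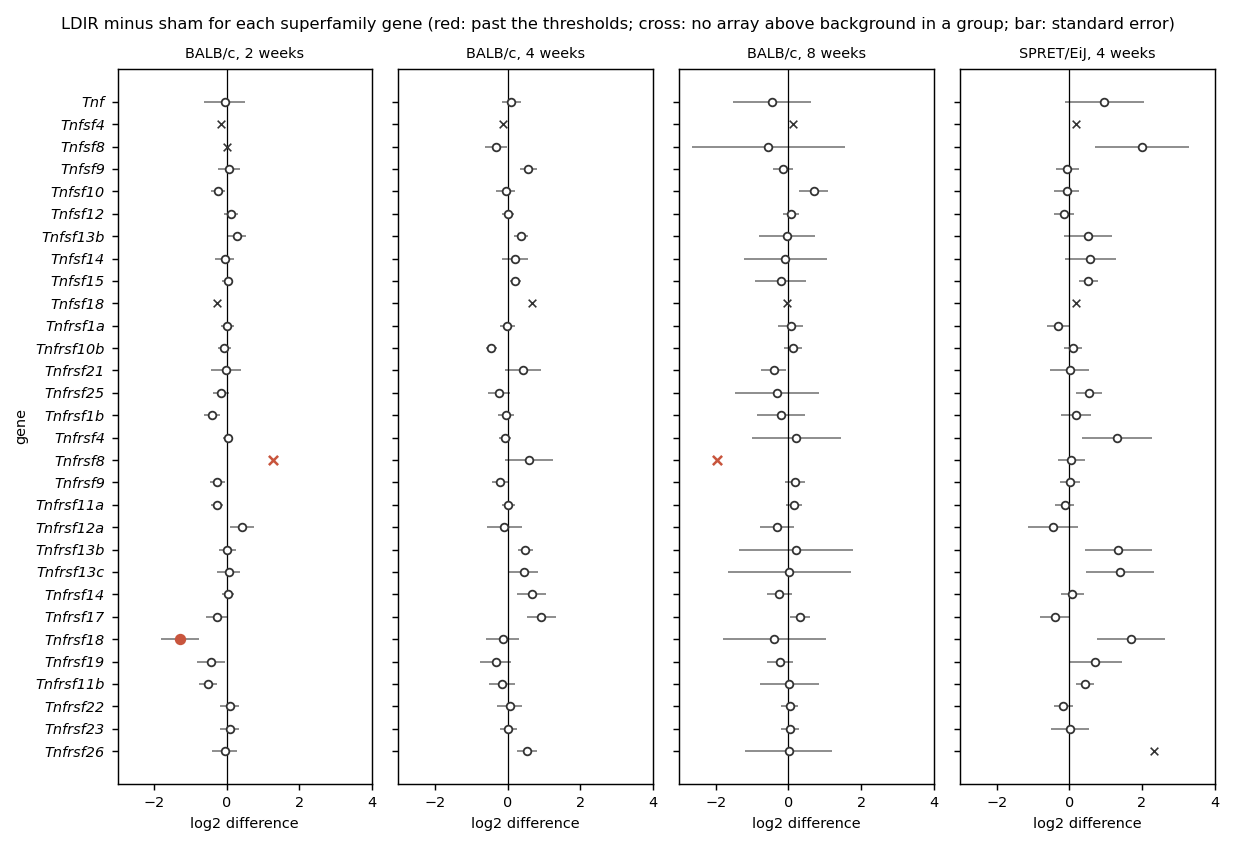
Each panel is 1 comparison of LDIR with sham mice; points give the log2 difference LDIR minus sham for each gene, bars the standard error of the limma estimate, 3 arrays per group. Crosses without bars mark fitted values of genes above background on no array of a group, which are not measured differences. Red marks passed an unadjusted p of 0.05 with over 1.5-fold: Tnfrsf8 and Tnfrsf18 at 2 weeks and Tnfrsf8 at 8 weeks. Wide bars at 8 weeks and in SPRET/EiJ include those of genes high on the arrays with high lymphocyte markers. They also include Tnfrsf11b at 8 weeks (SE 0.82), lowest on sham A, and Tnfrsf12a in SPRET/EiJ (SE 0.69), lowest on LDIR A.

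The genes acting downstream were read from lists chosen with earlier results of these data known. Of 37 adaptors and NF-κB regulators, 3 passed between the strains in sham mice and 2 in irradiated mice, or 8.11% and 5.41%, where 8.86% and 5.68% of all probes did. Fadd, the adaptor that links death domains to caspases, was lower in BALB/c in both, at -1.77 in sham mice and -1.54 in irradiated mice (limma adjusted p = 0.0026 and 0.0095). Nfkbie, an inhibitor of NF-κB, was higher in BALB/c by 2.08, and Sharpin, a subunit of the linear ubiquitin ligase, by 1.09 in sham mice (adjusted p = 0.0020 and 0.0058). Rnf31, the catalytic subunit of that ligase, was at -1.07 in sham mice (adjusted p = 0.0201) and passed the thresholds in irradiated mice at -1.20 (adjusted p = 0.0160). The subunits of the same ligase thus differed in opposite directions. The median of the list was 0.06 in sham and -0.43 in irradiated mice, beside -0.06 and -0.05 over all probes. SPRET/EiJ LDIR A, with high lymphocyte markers, belongs to the comparison of irradiated mice, and the downstream lists were not read without it. For LDIR against sham in SPRET/EiJ, which holds that array too, the list had a median of 0.33, beside 0.04 over all probes. There 32 of the 37 were above 0.

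Of 23 NF-κB target genes on the array, 1 passed between the strains in both sham and irradiated mice, a smaller share than that of all probes. This was Mmp9, a matrix metalloproteinase, whose signal in BALB/c sham mice was higher, at least 4.91-fold (limma adjusted p = 0.0029), where no SPRET/EiJ array was above background. In irradiated mice its difference was 2.80 (adjusted p = 0.0154). After LDIR, 1 of the 37 adaptors passed at 4 weeks (Traf4, at -1.02; background 4.83%). Of the targets, 3 passed at 2 weeks (Cxcl10 at 0.60, and Cxcl5 and Sele, both above background on no array compared; background 3.11%), 1 at 8 weeks (Junb at 0.89; background 1.81%) and 1 in SPRET/EiJ (Cxcl2, above background on 1 sham array; background 2.2%). The smallest adjusted p among these was 0.783, that of Traf4. In the interaction, Nfkbia, an inhibitor of NF-κB, was at -1.06 and Csf2, above background on none of the 4-week arrays, passed too (background 3.55%). Both had an adjusted p of 0.957 (limma). SPRET/EiJ LDIR A belongs to the interaction as well, and neither gene was read without it. Of 14 superfamily genes that carry other names, 0 passed between the strains (background 8.86% in sham and 5.68% in irradiated mice). In sham mice 3 of the 14 had an adjusted p under 0.05, a share near the 18.7% of all probes. Lta (lymphotoxin) was higher in BALB/c by 1.47. Eda and Edar, a ligand and receptor of skin appendages, were lower. Eda had a difference of -0.69, and Edar was at least 1.29-fold lower, on 1 SPRET/EiJ array above background. Edar also passed in SPRET/EiJ after LDIR, as 1 of the 14 (background 2.2%, limma adjusted p = 0.972), above background on no LDIR array.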

How the data were processed

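The authors deposited the intensity tables of Feature Extraction 10.10.1.1, the scanner software, which had subtracted the background and detrended every array per the file headers. A table of log2 values, set to the 75th percentile in GeneSpring by the authors and centred on 0 in every probe, was deposited too. These were used as an alternative, and against the intensities, centred likewise, each column had a correlation of at least 0.9997, with column medians from -0.22 to 0.33, so that scale, centring and direction are known. 3777 outlier spots were left out, 0 spots were saturated, the log2 intensity minus the array's 75th percentile was taken, and spots of a probe were averaged, giving 55681 probes. A probe counted as above background on an array if a share of at least 0.5 of its spots were marked so by the scanner. 7304 probes were so on no array.

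Groups, of 3 arrays each, came from the sample labels. limma 3.58.1 (R 4.3.3) fitted each comparison on its own arrays, with Benjamini-Hochberg adjustment over all probes and the thresholds of the study's methods. With 3 against 3, an exact permutation test of 1 gene cannot go below p = 0.1. The number of arrays limits the precision. Where a gene was above background on no array of 1 group, differences are given as a bound against the lowest signal above background there. The other group entered with the mean of all its arrays. Where only part of those were above background, the bound is approximate. With none above background in either group no fold is given. Medians, counts and p-values use the fitted values. The script of the fits was tested on simulated data.

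Values in every sample are given for members past the thresholds in any test and for 5 ligand and receptor sets: Tnf, Tnfsf10, Tnfsf12, Tnfsf13b and Tnfsf14 with their receptors. Other members are given by ranges and counts. The members and lists were chosen with earlier results of these data known. Other-cell lists covered B and T lymphocytes, plasma cells, macrophages, epithelium, adipocytes and muscle, reported with the results, and milk proteins, endothelium and keratinised epidermis, whose summed levels ran from 2.7 to 109, 18.4 to 44.7 and 0.434 to 1.73. The arrays high in lymphocyte markers are those over 3 times the median of the summed T cell level. Whether replicate letters pair samples was checked by the correlation of same-lettered samples' deviations from their group means. As alternatives, the background was corrected with normexp (offset 50), arrays were quantile normalized, the authors' values replaced the intensities, outlier spots stayed in, dim probes were dropped, and the methods' t-test replaced limma. Further fits had the replicate letter or the slide as a block, all 24 arrays together, the mean of a gene's probes, or 1 array less. Leaving out the arrays high in lymphocyte markers was added after seeing the data. Promoter sequences are RefSeq's, and 23 of 30 members matched that table.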

Additional observations from a re-analysis of the deposited data

Results flagged for a closer look

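In 2 genes of 30 the LDIR and sham arrays did not overlap in either of 2 comparisons and differed in opposite directions. How many of all probes meet this description was not counted, so whether this count is above the background is not known. Tnfrsf8 was higher after LDIR at 2 weeks and lower at 8 weeks in BALB/c. The highest sham value at 8 weeks was that of sham A, which had high lymphocyte markers and a raised background. LDIR B and C at 8 weeks lay on another slide than the sham arrays and LDIR A. No sham array at 2 weeks and no LDIR array at 8 weeks was above background. Only an approximate lower bound of 1.04 on the log2 scale can thus be given for the difference between these responses (12 arrays). Tnfrsf11b (osteoprotegerin) was higher in all 3 LDIR samples of SPRET/EiJ than in all 3 sham samples, with a log2 difference of 0.43 (SE 0.25), and lower in all 3 LDIR samples of BALB/c at 2 weeks, at -0.51 (SE 0.26). The difference between these responses was 0.94 (12 arrays), between comparisons that differ in strain and in time. Both genes were picked for their opposite directions, and the differences between responses were not tested. Groups of 3 samples were too small for a check of single outlying samples.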

How the results depend on the processing

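The count of members past the thresholds was recomputed under each alternative. Between the strains in sham mice it was 4, and it became 1 with the methods' t-test and 2 with the replicate block. Leaving out 1 array gave 1 to 4, with 1 (Tnfrsf18) without BALB/c sham A, B or C and 2 without SPRET/EiJ sham B. Between the strains in irradiated mice it was 2, and became 4 with normexp, 1 with the t-test, 1 with the replicate block and 4 with all 24 arrays in 1 fit. Leaving out 1 array gave 0 to 2, with 0 without BALB/c LDIR B or C or SPRET/EiJ LDIR C and 1 without BALB/c LDIR A or SPRET/EiJ LDIR B. In irradiated mice the slide and the strain cannot be told apart.

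For LDIR at 2 weeks the count of 2 became 1 under normexp, quantile normalization, detected probes only, the t-test, the replicate block and all 24 arrays, and was 1 to 2 with 1 array left out (1 without LDIR B, sham B or sham C). At 4 weeks the count of 0 became 1 with detected probes only and 1 with all 24 arrays (Tnfrsf17 both times), and 0 to 3 with 1 array left out. At 8 weeks the count of 1 became 0 under normexp, detected probes only, the t-test and the slide as a block, 2 with all 24 arrays, 4 without both arrays high in lymphocyte markers, and 0 to 2 with 1 array left out (0 without sham C or LDIR C, 2 without sham A). In SPRET/EiJ the count of 0 became 2 with the replicate block, 1 with all 24 arrays, 1 without LDIR A, and 0 to 2 with 1 array left out. The interaction count of 0 became 1 with detected probes only, 1 with the replicate block, 1 without SPRET/EiJ LDIR A, and 0 to 3 with 1 array left out. Over all BALB/c times it was 0 under each alternative. Whether the letters pair samples is not settled: at 2 weeks same-lettered samples correlated by 0.17, 0.48 and 0.17 over probes above background on all arrays but by 0.013, 0.14 and -0.03 over all probes, and no other pair of groups had 3 values over 0.1. The causes of these changes were not tested.

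The members past the thresholds kept their direction in that comparison under each alternative run. Others turned without the arrays high in lymphocyte markers: 8 of 30 between the strains in irradiated mice (Tnf from -0.56 to 0.84 and Tnfrsf4 from -0.68 to 0.57, for example), 10 for LDIR in SPRET/EiJ (Tnf from 0.96 to -0.44), 7 in the interaction (Tnfsf13b from -0.15 to 0.66), 5 at 8 weeks and 2 over all BALB/c times. With normexp the fitted values of dim genes shrank, to 0.11 at 2 weeks and -0.37 at 8 weeks for Tnfrsf8 and 0.24 between the strains in sham mice for Tnfrsf26. The mean of both probes put Tnfrsf23 at 1.47 in sham and 1.74 in irradiated mice.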
